A study of Sus scrofa with 12 samples.

Results

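Genes of the ATF4 branch of the integrated stress response were examined for binding of C/EBP-β in the endometrium of pregnant pigs. They were chosen by name (EIF2AK3, ATF4, ATF5, PPP1R15A, TRIB3, CHAC1, DDIT4, SESN2 and ASNS), and all 9 were found among the 19550 protein-coding genes placed on the chromosomes of the pig assembly Sscrofa11.1. The C/EBP-β ChIP libraries comprised 3 of day 15 and 3 of day 12 of pregnancy, all made from formaldehyde-fixed endometrial tissue with the same anti-C/EBP-β antibody. The labels name no treatment, breed or age. They also leave out whether each library came from its own animal, so p-values reflect only the variation among these libraries, which could be technical. Input was sampled on both days (6 samples) and is not analysed here. The lists give summits, the single bases at which the peak caller placed the highest point of each peak. Each summit has a score, and without read counts the depth of the libraries is unknown.

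The integrated stress response starts with kinases that phosphorylate the translation initiation factor eIF2α. This slows protein synthesis in general while the mRNA of the transcription factor ATF4 is translated more. ATF4 binds DNA as a dimer with other basic leucine zipper proteins, C/EBP-β among them, at composite C/EBP-ATF elements, and switches on genes of amino acid supply, of mTORC1 control and of feedback on the response itself. C/EBP-β also has a known part in the decidual response of the uterus in other mammals. In whole tissue, binding in fewer cells and weaker binding in each cell cannot be told apart, and the files hold no expression values against which the tissue label or the activity of the pathway could be checked.

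Before the values, the lists themselves need a description. They held 70152, 16529 and 11960 summits on the chromosomes in day 15 replicates 1 to 3, against 6557, 33294 and 57728 in day 12 replicates 1 to 3. The peak names of day 15 replicates 2 and 3 and day 12 replicate 1 carry a directory path, and those of day 15 replicate 1 and day 12 replicates 2 and 3 do not. The labels do not explain this division, which is called here path-named and plain-named. The 3 path-named lists are also the 3 shortest, so the kind of list and its length cannot be told apart. The peak names of day 15 replicate 3 do not name the protein, so that its identity as C/EBP-β ChIP rests on the labels. Scores are given as percentiles within their own list (100 for the highest), because the scores themselves grow with depth.

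Of the 9 genes, 8 had C/EBP-β summits close to them and ASNS had none. A gene was counted for a library when a summit lay within 5 kb of either of its ends, and for a day when at least 2 of 3 libraries met this. On day 15, 8 of 9 genes counted, against a background of 46.3% of all protein-coding genes. On day 12, 7 of 9 counted, against a background of 38.1%. ATF4, ATF5, PPP1R15A, CHAC1 and DDIT4 had a summit in all 6 libraries, which held for 13.1% of all genes. The remaining 3 with summits were TRIB3 (2 day 15 and 3 day 12 libraries), SESN2 (3 and 2) and EIF2AK3 (3 and 1). Without day 15 replicate 3, the list whose names lack the protein, 8 of 9 genes had a summit in both other day 15 libraries (42.9% of all genes), and 6 had one in all 5 remaining libraries (13.9% of all genes).

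**Figure D1:**
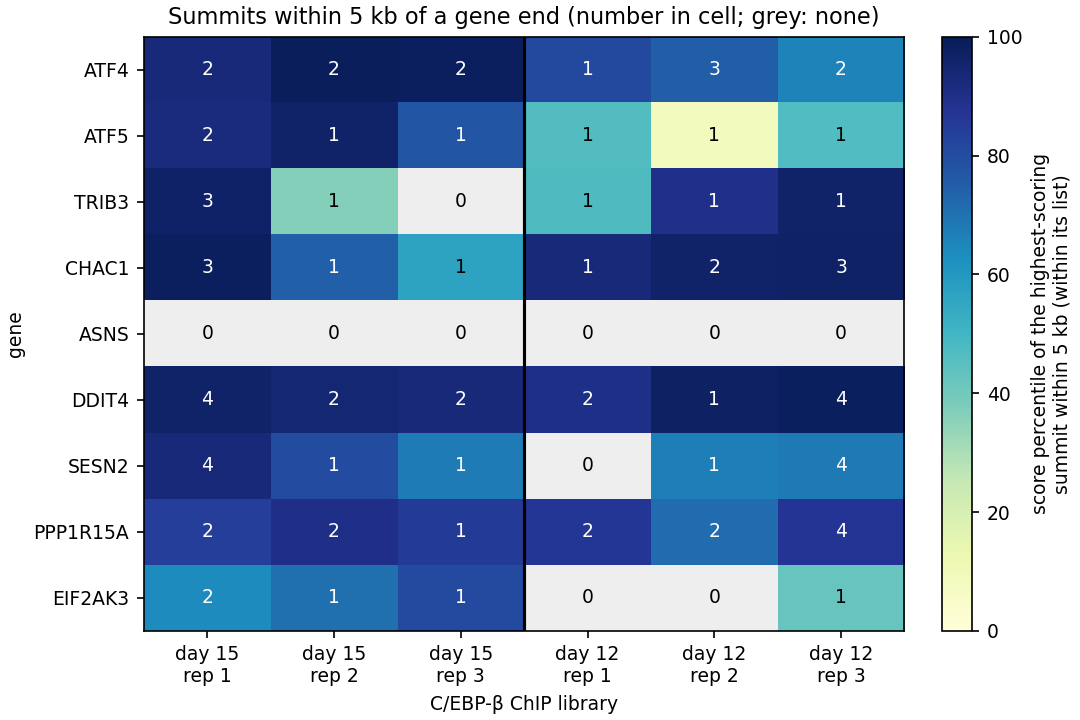
Number of summits within 5 kb of a gene end (number in each cell) and score percentile of the highest of them (colour) for each of the 9 genes in the 6 C/EBP-β libraries. ASNS is empty in all 6 libraries, and ATF4, ATF5, CHAC1, DDIT4 and PPP1R15A have at least 1 summit in each.

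Library by library, the share of the 9 genes lay above the share of all genes in each of the 6 lists. In day 15 replicate 1, 8 genes had a summit within 5 kb (64.8% of all genes). In day 15 replicate 2 it was 8 genes (44.6% of all genes), and in day 15 replicate 3 it was 7 (37.6%). The day 12 lists had 6 genes in replicate 1 (17.2% of all genes), 7 in replicate 2 (38.4%) and 8 in replicate 3 (54.1%). The gap to all genes was thus widest in the shortest list, day 12 replicate 1. The genes share no summit with each other, but the counts were not tested, since the genes were chosen with earlier results of these data known.

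The count of day 12 depended on list length. When each list was reduced to its 6557 highest-scoring summits, 7 of the 9 genes counted on day 15 (20.3% of all genes) and 3 on day 12 (9.68% of all genes). The 3 were TRIB3, CHAC1 and DDIT4, and of these CHAC1 and DDIT4 had a summit in all 6 reduced lists (3.53% of all genes). TRIB3 then had a summit in 1 day 15 and 3 day 12 libraries, SESN2 in 3 and 0, and ATF4 and ATF5 each in 3 and 1.

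**Figure D2:**
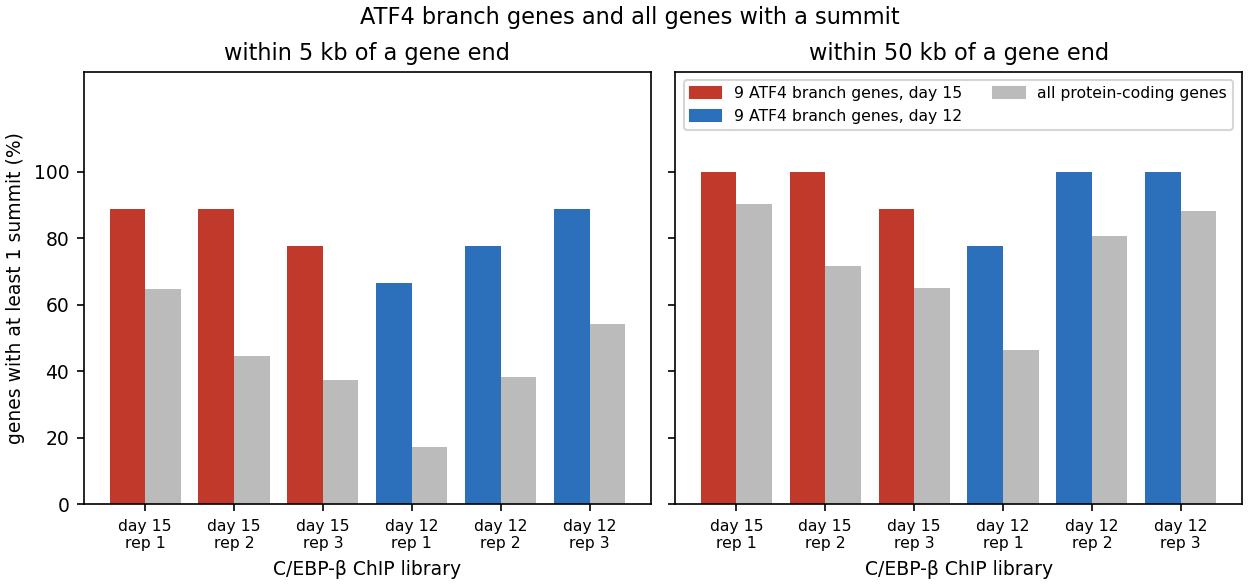
Percentage of the 9 ATF4 branch genes (coloured bars, day 15 red and day 12 blue) and of all 19550 protein-coding genes (grey bars) with at least 1 summit within 5 kb (left) or 50 kb (right) of a gene end, per library. The coloured bar is higher than the grey one in each library, and in the 50 kb window the grey bars reach 90.4% in the longest list, day 15 replicate 1.

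EIF2AK3 encodes PERK, the eIF2α kinase of the endoplasmic reticulum, and was the gene with the largest difference in library number between days. It lies on chromosome 3 (57423894 to 57506247). Day 15 replicates 1 to 3 had 2, 1 and 1 summits within 5 kb, against 0, 0 and 1 in day 12 replicates 1 to 3. A summit in 3 day 15 and at most 1 day 12 libraries was found for 8.95% of all genes, so EIF2AK3 is 1 of many with this pattern. The difference did not pass the test (two-sided exact permutation p = 0.4, Benjamini-Hochberg adjusted p = 1 over 19550 genes). Among path-named lists both day 15 libraries had a summit and the day 12 library none, and among plain-named lists the day 15 library and 1 of 2 day 12 libraries had one. All these summits lay at the low-coordinate end of the gene, and none at the high-coordinate end. Day 15 replicates 2 and 3 had theirs 150 bp outside and 32 bp inside that end, at percentiles 70.5 and 80.7. Day 15 replicate 1 and day 12 replicate 3, both plain-named, had theirs 473 and 434 bp outside it, at percentiles 52.2 and 41.9. Day 15 replicate 1 had a further summit 888 bp inside. In day 12 replicates 1 and 2 the nearest summit was 590609 and 21173 bp away.

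ATF4, the central factor of the branch (chromosome 5, 8742964 to 8745752), carried summits at both ends of its short gene body. At the low-coordinate end, day 15 replicates 1 to 3 had a summit 23, 20 and 28 bp inside the gene, at percentiles 92.9, 77.8 and 53.6. Day 12 replicates 2 and 3 had one 31 and 7 bp inside, at percentiles 60.1 and 65.8, and day 12 replicate 1 had none there. These 5 summits spanned 25 bp. The other group of summits lay inside the gene towards its high-coordinate end. Day 15 replicates 2 and 3 and day 12 replicates 1 and 2 had one within a stretch of 53 bp (8745204 to 8745256), at percentiles 99.2, 98.2, 81.0 and 75.2. Day 15 replicate 1 and day 12 replicate 3 had theirs a little further inside, 834 and 764 bp from the high-coordinate end. The highest-scoring ATF4 summit of each library thus stood at percentiles 92.9, 99.2 and 98.2 on day 15 and 81.0, 75.2 and 65.8 on day 12. Percentiles in lists of such different lengths cannot show a change in binding. How many of all genes differ between days in this way was not counted. A further place, 17.2 kb beyond the high-coordinate end, had a summit in all 6 libraries (8762924 to 8762985), and lies 0.879 kb from MIEF1, a mitochondrial dynamics gene.

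ATF5, a related factor whose translation is also raised under stress, lies on chromosome 6 (54945067 to 54950142) and had summits at different places in the different kinds of list. The path-named lists had a summit 843 bp (day 15 replicate 2), 841 bp (day 15 replicate 3) and 648 bp (day 12 replicate 1) inside the low-coordinate end. The middle of this place lies 68 bp from an end of IL4I1, nearer than to either end of ATF5. The plain-named lists had theirs 95 bp (day 15 replicate 1), 20 bp (day 12 replicate 2) and 45 bp (day 12 replicate 3) inside it. No library had a summit at both places. The highest-scoring summit within 5 kb stood at percentiles 92.1, 96.4 and 77.4 on day 15 and 46.2, 8.71 and 46.5 on day 12. The percentile in day 15 replicate 1 came from a summit 3524 bp outside the gene, inside NUP62 and IL4I1. As with ATF4, percentiles from lists of such different lengths, here also from different places, cannot show a change in binding. How many of all genes differ in this way was not counted.

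PPP1R15A encodes GADD34, the subunit that directs phosphatase to eIF2α and so ends the response (chromosome 6, 54172038 to 54175461). It had a summit at its low-coordinate end in all 6 libraries, within 54171918 to 54172111, 1 of 2 such places within 5 kb of any of the 9 genes. The percentiles there were 60.3, 89.5 and 85.5 in day 15 replicates 1 to 3, against 86.6, 49.96 and 31.8 in day 12 replicates 1 to 3. The ranges overlap, and the values were higher in each of the path-named lists than in each of the plain-named ones. A further place inside the gene, 668 bp from the high-coordinate end, had a summit in every library except day 15 replicate 3.

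TRIB3, a pseudokinase gene induced by ATF4 whose product restrains ATF4 and AKT, lies on chromosome 17 (34808273 to 34819592). Every library with a TRIB3 summit within 5 kb had one at the high-coordinate end, and day 15 replicate 1 had 2 more elsewhere. Day 15 replicates 1 and 2 had a summit 30 and 90 bp inside that end, at percentiles 96.6 and 36.7, and day 15 replicate 3 had none within 5 kb. Day 12 replicates 1 to 3 had one 60, 21 and 17 bp inside it, at percentiles 47.2, 89.3 and 96.4. In day 15 replicate 3 the nearest summit was 7093 bp from the gene. All 6 libraries had a summit 8.73 kb below the low-coordinate end (34799532 to 34799553), a stretch of 22 bp inside RBCK1, a ubiquitin ligase subunit gene, at percentiles 94.2, 66.0 and 82.3 on day 15 and 82.8, 95.1 and 86.8 on day 12.

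CHAC1, which encodes a glutathione-degrading enzyme, lies on chromosome 1 (130360510 to 130363332) and had the other place within 5 kb that was shared by all 6 libraries. Those summits lay 178, 147 and 225 bp beyond the high-coordinate end in day 15 replicates 1 to 3, and 183, 165 and 170 bp beyond it in day 12 replicates 1 to 3. Their percentiles were 98.1, 74.5 and 56.4 on day 15 and 92.7, 96.2 and 97.1 on day 12. Each was the highest-scoring CHAC1 summit of its library. The plain-named lists had a further summit 3.45 kb beyond that end, at percentile 85.9 in day 15 replicate 1 and at 74.4 and 62.4 in day 12 replicates 2 and 3.

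DDIT4 and SESN2 both encode inhibitors of mTORC1, the growth-promoting kinase complex. DDIT4 (chromosome 14, 75117708 to 75119907) had 4, 2 and 2 summits within 5 kb in day 15 replicates 1 to 3 and 2, 1 and 4 in day 12 replicates 1 to 3. Its highest-scoring summit stood at percentiles 96.4, 94.2 and 92.8 on day 15 and 90.1, 97.6 and 98.8 on day 12, so that DDIT4 was above percentile 90 in every library. The position differed between kinds of list. The 3 plain-named lists had this summit 1029 bp (day 15 replicate 1), 1011 bp (day 12 replicate 2) and 1026 bp (day 12 replicate 3) outside the low-coordinate end. Day 15 replicates 2 and 3 had it 175 and 141 bp outside, and day 12 replicate 1, the third path-named list, had summits at both places, 1005 and 99 bp outside.

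SESN2 (chromosome 6, 85321982 to 85348044), whose product also senses leucine, had summits at both ends. Near the low-coordinate end, day 15 replicates 1 to 3 had a summit 90, 203 and 59 bp outside the gene, at percentiles 76.6, 80.4 and 67.9. Of the day 12 libraries, replicate 3 had one there, 142 bp outside, at percentile 27.3. Just beyond the high-coordinate end, the 3 plain-named lists had a summit, 61 bp away in day 15 replicate 1 and 78 and 137 bp away in day 12 replicates 2 and 3. A place in the gene body had a summit in all 6 libraries (85327050 to 85327215), but its middle lies 5088 bp from the nearer end and so falls just outside the window. Day 12 replicate 1, which had no SESN2 summit within 5 kb, had its nearest there, at 5098 bp. When summits anywhere in the gene body were counted too, SESN2 had a summit in all 6 libraries, and the number of such genes among the 9 became 6, while the share of all genes became 18.2%.

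ASNS encodes asparagine synthetase, a classical target of ATF4 whose promoter holds a C/EBP-ATF element in human cells. It was without a summit within 5 kb in all 6 libraries, which held for 29.5% of all genes. ASNS lies on chromosome 9 (77318341 to 77336290) with no other protein-coding gene end within 50 kb. The nearest place with summits lay beyond the high-coordinate end (77342928 to 77342993). Day 15 replicates 1 and 2 had a summit there, 6685 and 6638 bp from the gene, and day 12 replicates 2 and 3 had one 6703 and 6692 bp from it. Their percentiles were 86.8 and 25.7 on day 15 and 72.0 and 83.6 on day 12. In day 15 replicate 3 and day 12 replicate 1, the nearest summit was 371146 and 377598 bp away.

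**Figure D3:**
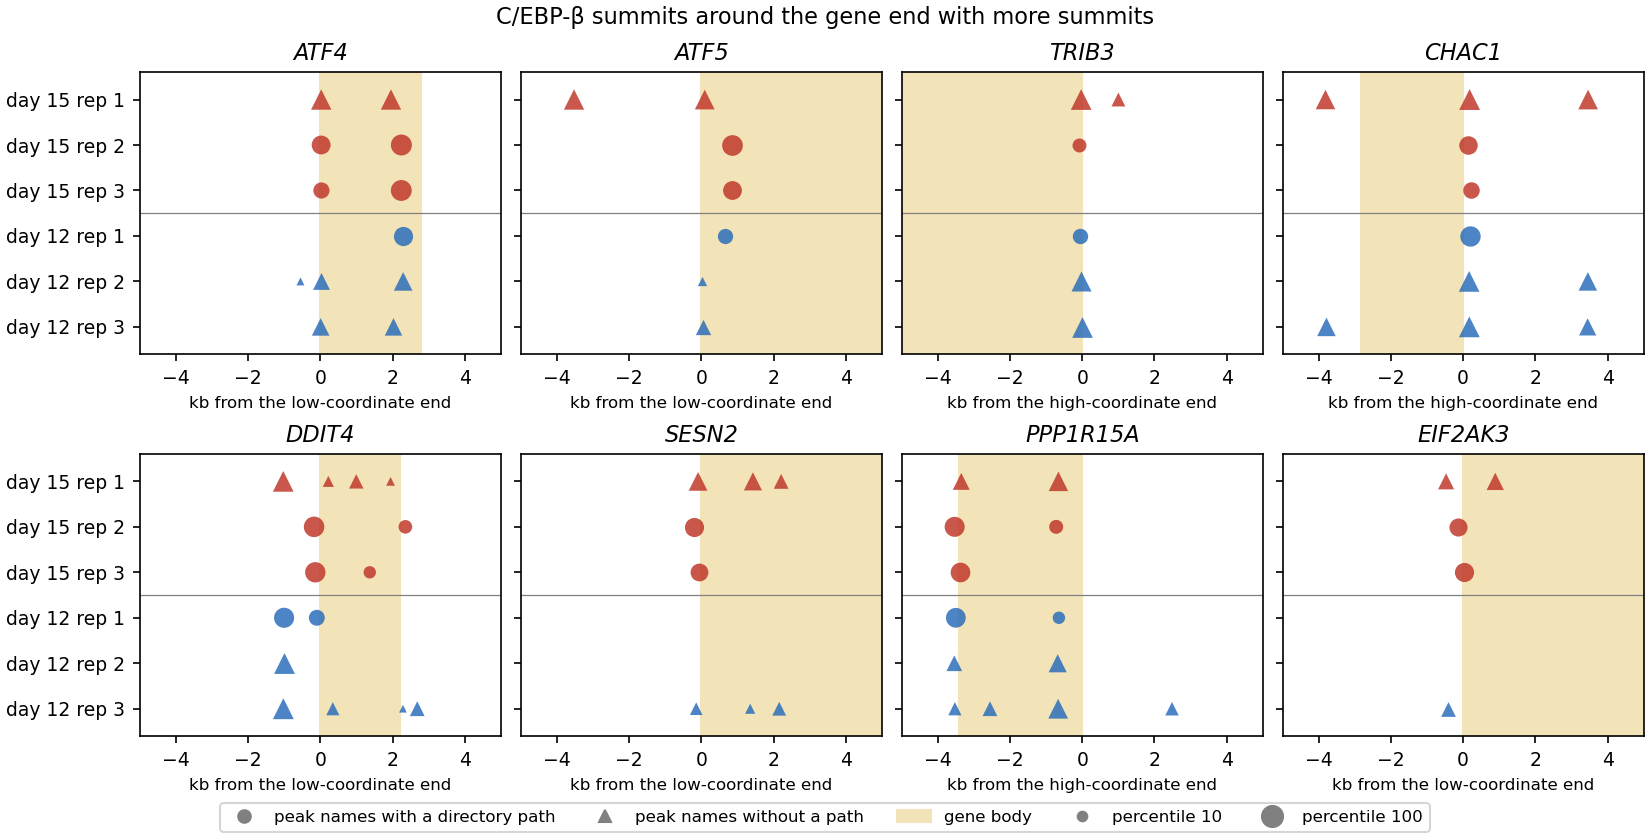
Positions of summits (x axis, kb from the gene end named under each panel) in the 6 libraries (rows, day 15 above day 12) for the 8 genes with a summit within 5 kb. Symbol size gives the score percentile, circles are path-named and triangles plain-named lists, and shading is the gene body. The symbols of CHAC1 line up in all 6 rows, whereas those of ATF5 stand at different places in circles and triangles.

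To describe how far places were shared, summits of any library no more than 200 bp apart were joined into sites. The 9 genes had 32 sites within 5 kb, of which 2 (6.25%) had a summit in all 6 libraries, against 4.46% of the 28685 sites near any gene. No site of the 32 had a summit in the 3 libraries of a day and none of the other day. Such sites were also few among all sites near genes, 2.48% for day 15 alone and 0.115% for day 12 alone. A further 2 of the 32 sites, those of ATF5 and DDIT4 described above, had a summit in the 3 path-named lists and in no plain-named one, a pattern of 0.244% of all sites near genes. This number became 1 when summits were joined within 100 bp (0.262% of all sites) or within 500 bp (0.0959%). The opposite pattern was found at 3 of the 32 sites (ATF5, CHAC1 and SESN2), against 9.07% of all such sites. Within 50 kb there were 125 sites, 6 of them (4.8%) with a summit in all 6 libraries, against 3.11% of 68942. Besides those of CHAC1, PPP1R15A, SESN2, TRIB3 and ATF4 already given, the remaining site lay 46.6 kb from PPP1R15A and 0.245 kb from BAX, the gene of a pro-apoptotic BCL2 family protein.

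Some of the summits can be counted for other genes as well. Of the 12 summits within 5 kb of ATF4, 6 were also within 5 kb of an end of RPS19BP1 and 6 of MIEF1, and none was free of both. All 7 ATF5 summits were shared with NUP62 and with IL4I1, and all 13 PPP1R15A summits with TULP2 (12 of them with PLEKHA4 too). No other protein-coding gene had an end within 5 kb of the summits of TRIB3, CHAC1, DDIT4, SESN2 and EIF2AK3.

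In the wider window all 9 genes counted on both days, but so did most genes. A summit within 50 kb in at least 2 of 3 libraries was found for 74.2% of all genes on day 15 and 80.0% on day 12. All 6 libraries had one for 7 of the 9 genes, against 40.5% of all genes; the other 2 were EIF2AK3 (3 day 15 and 2 day 12 libraries) and ASNS (2 of 3 on each day). Per library, 9, 9 and 8 of the 9 genes had such a summit in day 15 replicates 1 to 3, where 90.4%, 71.6% and 65.1% of all genes did. In day 12 replicates 1 to 3 it was 7, 9 and 9 genes, where 46.6%, 80.7% and 88.4% of all genes did.

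DDIT4 had the most summits within 50 kb when libraries were added up, with 23, 7 and 7 in day 15 replicates 1 to 3 and 3, 10 and 21 in day 12 replicates 1 to 3. Many of them lay nearer to an end of ANAPC16, ASCC1 or DNAJB12 than to DDIT4. DDIT4 was not alone at the top of each shorter list, since TRIB3 and PPP1R15A also had 7 in day 15 replicate 2. PPP1R15A had 4 in day 12 replicate 1. In day 15 replicate 3 DDIT4 was highest, followed by TRIB3, SESN2 and PPP1R15A with 5 each. To allow for list length, numbers were divided by the length of the list and given per 10000 summits. On this scale DDIT4 averaged 4.46 ± 1.301 on day 15 and 3.74 ± 0.791 on day 12 (SD, n = 3 each). The median over all genes ran from 0 in day 12 replicate 1 to 0.836 in day 15 replicate 3. EIF2AK3 had 0.998, 1.81 and 1.67 in day 15 replicates 1 to 3 and 0, 0.300 and 1.21 in day 12 replicates 1 to 3, a difference of 0.991. The groups overlap through day 12 replicate 3, and the difference did not pass the test (two-sided exact permutation p = 0.2, adjusted p = 0.831 over all genes). The difference for EIF2AK3 was 1.74 within path-named and 0.241 within plain-named lists. It was 2.20 with a score of at least 10 and 2.03 with lists of equal length, each with an exact permutation p of 0.1 and an adjusted p of 1. CHAC1 averaged 1.70 ± 0.711 on day 15 and 1.04 ± 0.433 on day 12, with an exact permutation p of 0.2 and an adjusted p of 0.831. For the other 7 genes the exact permutation p lay between 0.6 and 1.

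**Figure D4:**
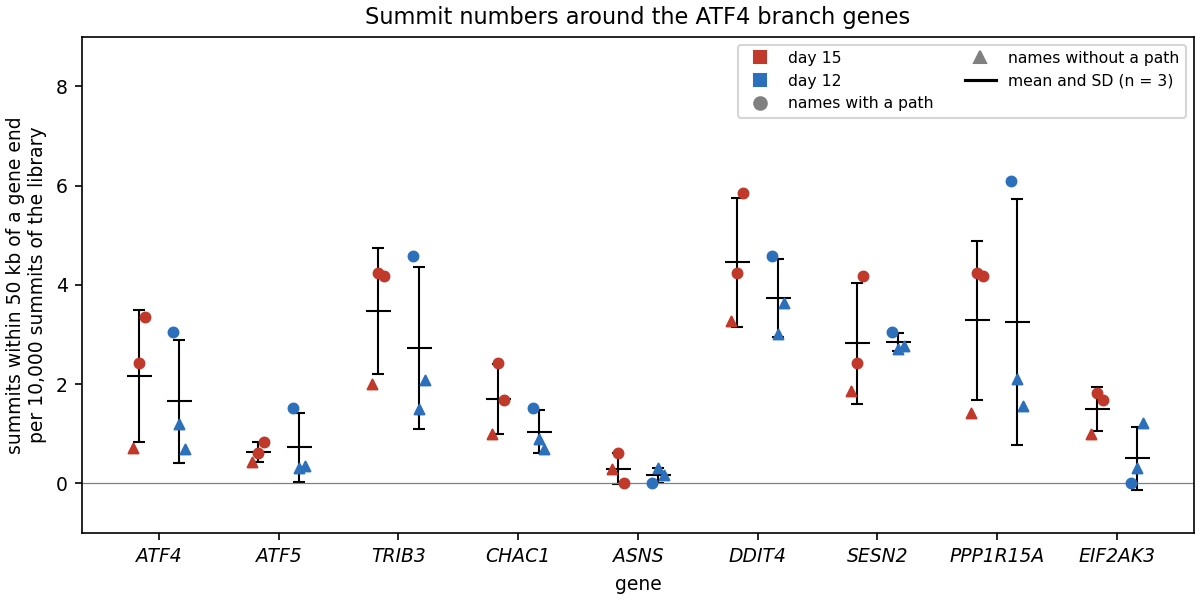
Summits within 50 kb of a gene end per 10000 summits of the library (y axis) for the 9 genes, with day 15 (red) left of day 12 (blue), a symbol for each library and bars for the mean and SD of 3 libraries. The days overlap for each gene.

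No gene in the whole table passed the test between days. With 3 against 3 libraries the exact permutation test cannot give a p below 0.1, and after adjustment over 19550 genes the smallest p was 1 for presence within 5 kb and 0.755 for the number within 50 kb. Unadjusted, 0 genes were under 0.05, and 560 and 2590 reached 0.1. None of the 9 genes was among them.

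Other genes of the pathway were counted the same way, from a list of 74 genes of which 71 were matched. On day 15, 56 of the 71 had a summit within 5 kb in at least 2 of 3 libraries (78.9%, against the 46.3% of all genes), and on day 12 it was 49 (69.0%, against 38.1%). A summit in all 6 libraries was found for 29 (40.8%, against 13.1%). For 6 of the 71 (8.45%) day 15 had at least 2 more libraries than day 12, a share below the 11.8% of all genes, and for none was it the reverse (1.58% of all genes).

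Of the remaining 3 eIF2α kinase genes, EIF2AK1 (the haem-regulated kinase) had a summit in 3 day 15 and 1 day 12 libraries, EIF2AK2 (PKR, activated by double-stranded RNA) in 2 and 0, and EIF2AK4 (GCN2, activated by amino acid shortage) in 2 and 1. With EIF2AK3, all 4 kinase genes thus counted on day 15 (46.3% of all genes) and none on day 12 (38.1% of all genes). EIF2AK4 differed by 1 library only, and the other kinase genes by 2. A difference of at least 2 libraries in this direction was found for 11.8% of all genes. None of these differences passed the test (exact permutation p = 0.4 for EIF2AK1 and EIF2AK2 and p = 1 for EIF2AK4, adjusted p = 1). With the lists reduced to equal length, EIF2AK3 and EIF2AK1 each kept a summit in 2 of 3 day 15 libraries, and EIF2AK2 and EIF2AK4 had none in any library.

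The eIF2 subunit genes EIF2S1, EIF2S2 and EIF2S3 and the exchange factor gene EIF2B5 had a summit in all 6 libraries. The other exchange factor genes matched had fewer, with 2 day 15 and 1 day 12 libraries for EIF2B1, 2 and 2 for EIF2B2, and 1 and 1 for EIF2B3. Of the phosphatase genes, PPP1R15B, the constitutive partner of PPP1R15A, and the catalytic subunit gene PPP1CB had a summit in all 6 libraries, and PPP1CC, also a catalytic subunit gene, in 3 day 15 and 2 day 12 libraries. PPP1CA, the other catalytic subunit gene, had one in 3 day 15 and 0 day 12 libraries (exact permutation p = 0.1, the smallest possible, adjusted p = 1). With lists of equal length PPP1CA had a summit in 1 day 15 and 0 day 12 libraries. Among leucine zipper partners and stress factors, CEBPB, CEBPG, DDIT3 (CHOP), NUPR1 and XBP1 had a summit in all 6 libraries. ATF3, another ATF4 target, had one in day 15 replicate 1 alone.

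Among genes that supply amino acids, PSAT1 and PSPH of serine synthesis, PYCR1 of proline synthesis and the transporter genes SLC3A2, SLC7A1, SLC38A2 and SLC1A4 had a summit in all 6 libraries. PHGDH, the first enzyme of serine synthesis, had one in 1 day 15 and 2 day 12 libraries, and SLC7A11, the cystine transporter, in 1 on each day. MTHFD2, a mitochondrial folate enzyme, had one in 3 and 1, as did XPOT, which exports tRNA from the nucleus. Of the tRNA synthetase genes, AARS, GARS, NARS, EPRS and MARS had a summit in all 6 libraries. So did TRIB1 and GADD45A of growth control and MAP1LC3B, ATG5, GABARAPL1 and TXNIP of the list of autophagy and redox genes. VEGFA, the angiogenic factor, had one in 3 day 15 and 0 day 12 libraries (exact permutation p = 0.1, adjusted p = 1), and in 1 and 0 with lists of equal length. DDIT4L and CHAC2, the paralogues of DDIT4 and CHAC1, had no summit in any library.

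**Figure D5:**
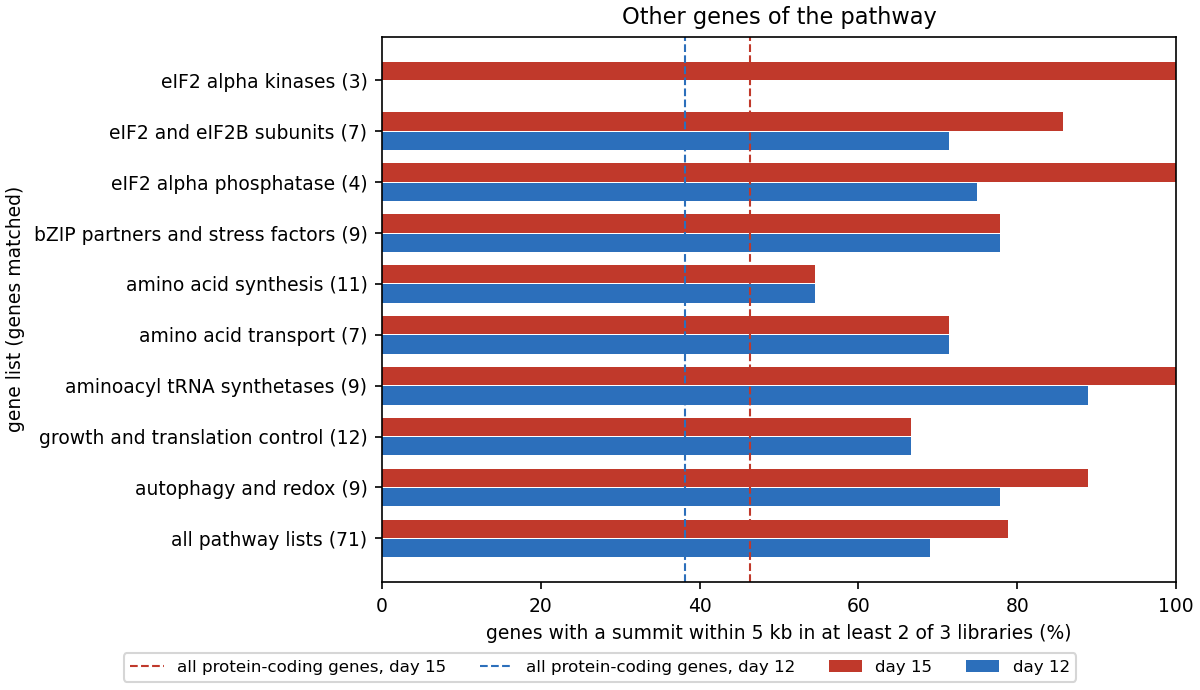
Percentage of genes of each pathway list with a summit within 5 kb in at least 2 of 3 libraries, day 15 (red) above day 12 (blue), with the number of matched genes in brackets and dashed lines for all protein-coding genes. The 3 further eIF2α kinase genes count on day 15 and not on day 12, while the amino acid synthesis list has the lowest share on day 15.

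The genes whose pattern was most like that of ATF4 were found by the mean absolute difference, over the 6 libraries, in the percentile of the highest-scoring summit within 5 kb. They included PIM3, with a mean difference of 2.25 percentile points, and FCGRT, with 2.57.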

How the data were processed

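The submitters' processing notes name Bowtie2 (2.3.5.1) and SAMtools (1.9) with MACS2 (2.1.2) as peak caller, and the build susScr11, which is Sscrofa11.1. For the calling threshold, input use, duplicate reads and pooling, the settings were not given in the sources used here. The authors deposited each summit with a score, the −log10 of either its p-value or its q-value. The minimum score was 2.02 in day 12 replicate 1, and 1.31 to 1.37 elsewhere. Summits with a score under 2.02 are thus listed in the other libraries only, which bears on each absence in day 12 replicate 1, the shortest list. Whether its calling threshold differed is not known.

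Of 198341 summits, the 196220 on the assembled chromosomes were kept and their positions counted from 1. Gene ends came from RefSeq Sscrofa11.1, which names no strand here. Of 74 further pathway genes, 71 matched, 8 of them by an older symbol. Days were compared per gene by two-sided exact permutation over 20 arrangements of the 6 libraries, with Benjamini-Hochberg adjustment over all genes and a threshold of 0.05. Counting was checked on simulated summits. Python 3.11.15, NumPy 2.4.6 and pandas 2.3.3 were used.

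The members, lists and tests were chosen with earlier results of these data known. By the naming rule, the text names the 9 genes, pathway genes with a summit in all 6 libraries or differing by at least 2 libraries between days, genes that share a summit within 5 kb, and the genes most like ATF4. Some genes that the rule names are left out. EIF2AK4, EIF2B1, EIF2B2, EIF2B3, PPP1CC, ATF3, PHGDH, SLC7A11, DDIT4L, CHAC2, and BAX, RBCK1, ANAPC16, ASCC1 and DNAJB12 as nearest or enclosing genes, were added after their values were seen. Sequence motifs were not analysed here.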

Additional observations from a re-analysis of the deposited data

How the results depend on the processing

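With a score of at least 10, the genes with a summit within 5 kb in all 6 libraries numbered 3 (2.95% of all genes). With lists of equal length they numbered 2 (3.53%), the day 12 number was 3 within 5 kb (9.68%) and 5 within 50 kb (38.1%), and 4 genes had a summit within 50 kb in all 6 (17.03%). Joining within 100 bp left 1 of 36 sites in all 6 libraries, that of CHAC1, where 3.01% of all sites near genes were in all 6. Joining within 500 bp gave 3 of 26 sites, against 6.09% of all such sites. Each library left out in turn gave 7 to 8 genes within 5 kb on day 15, 6 to 7 on day 12 and 5 to 6 in all remaining libraries. Where 2 libraries of a day were left, a gene counted for that day only with a summit in both. The shares of all genes then moved more. On day 15 they were 34.5%, 36.2% and 42.9% without its replicate 1, 2 or 3. On day 12 they were 36.2%, 16.6% and 15.0% without its replicate 1, 2 or 3. In all remaining libraries the share was 23.1% without day 12 replicate 1. A score of at least 2, chosen after seeing the data, changed none of these numbers. None of the 9 genes passed the test between days in any setting, but this was fixed in advance. No setting allowed a p below 0.1 in the permutation test. The replicate numbers share only a number: same-numbered deviations correlated at -0.26, 0.0007 and -0.20, and with the replicate block (smallest p = 0.25) the number of the 9 past the test stayed 0.

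The day 15 minus day 12 differences in summits per 10000 within 50 kb, none of which passed the test, often turned direction. With a score of at least 5 they were 0.13 for ATF5, -0.0039 for TRIB3, -0.091 for CHAC1, -0.11 for ASNS and -0.39 for PPP1R15A. With a score of at least 10 they were -1.25 for ATF4, 1.75 for ATF5, -0.23 for TRIB3, -1.48 for CHAC1, -0.38 for ASNS, 0.23 for SESN2 and -0.93 for PPP1R15A. With equal lists they were 1.02 for ATF5 and 2.54 for SESN2. The mean of the difference within path-named and that within plain-named lists was -0.20 for ATF4, -0.081 for TRIB3 and -1.15 for PPP1R15A. For TRIB3 the difference was -0.367 within path-named and 0.205 within plain-named lists. For ATF4 and PPP1R15A it was negative within both. Leaving out a library gave -0.0818 to 1.23 for ATF4, -0.31 to 0.30 for ATF5, -0.0153 to 0.29 for ASNS, -0.71 to 0.46 for SESN2 and -0.82 to 1.45 for PPP1R15A. The cause was not tested. Distances to the transcription start were not run, since the strand was not used here.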
